A study of Homo sapiens with 6 samples.

Results

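The genes described here encode 8 proteins that load or form the replicative helicase: the 6 subunits of the MCM2 to MCM7 hexamer, the GINS subunit GINS2 and the licensing factor CDT1. They were taken by symbol, with earlier results of these data known, and all 8 were found among the 14884 named genes of the arrays. The samples were 6 RNA samples of MM.1S, a human multiple myeloma (plasma cell cancer) line. The ATRA group (3 arrays) had been cultured for 12 h with 10 µM ATRA (all-trans retinoic acid), and the DMSO group (3 arrays) for 12 h with DMSO, the solvent control. Both groups had first been pulsed for 1 h with the agent that the labels call Cfz, so every value here is from cells already exposed to it and none from cells without the pulse. The labels do not say whether the 3 samples of a group came from separate cultures, and p-values therefore measure the spread between these samples, which may be technical. All results come from a single cell line.

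DNA replication starts from origins that are licensed while cells are in G1. The origin recognition complex and CDC6 bind the DNA, and CDT1 brings the MCM2 to MCM7 hexamer, which is closed around the DNA as an inactive double ring. In S phase the kinases CDK2 and CDC7 switch the ring on, and CDC45 and the 4 GINS proteins join it to give the active CMG helicase (CDC45, MCM, GINS), which unwinds DNA ahead of the fork. Many genes of this machinery are known targets of E2F transcription factors, whereas genes of mitosis are known for CHR elements in their promoters.

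RefSeq promoters on the build GRCh38.p14, from 250 bases before to 50 after each annotated start, were at hand for 6 of the 8 genes: MCM2, MCM3, MCM6, MCM7, GINS2 and CDT1. They are shown because all 6 held a word of the E2F type. The genes were chosen by symbol, not by promoter letters. They belong to machinery known for E2F targets, however, so these matches are no independent support. The words searched on both strands were TTTGGCGC, TTTCCCGC, TTTGCCGC and TTTCGCGC. Overlapping matches were joined into 1 site, which gave 9 sites. Each line below gives 30 bases, 5′ to 3′ on the strand of the gene, with the match in capitals:
MCM2, chr3:127598404-127598433, plus strand: tgaaccactTTTCGCGCGAAAcctggttgt
MCM3 upper site, chr6:52284898-52284927, minus strand: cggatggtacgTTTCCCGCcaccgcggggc
MCM3 lower site, chr6:52284728-52284757, minus strand: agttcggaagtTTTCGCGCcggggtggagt
MCM6 upper site, chr2:135876575-135876604, minus strand: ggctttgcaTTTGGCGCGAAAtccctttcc
MCM6 lower site, chr2:135876513-135876542, minus strand: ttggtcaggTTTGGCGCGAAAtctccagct
MCM7 upper site, chr7:100101566-100101595, minus strand: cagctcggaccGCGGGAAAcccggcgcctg
MCM7 lower site, chr7:100101388-100101417, minus strand: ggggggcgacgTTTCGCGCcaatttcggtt
GINS2, chr16:85688967-85688996, minus strand: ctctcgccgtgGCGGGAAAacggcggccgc
CDT1, chr16:88803743-88803772, plus strand: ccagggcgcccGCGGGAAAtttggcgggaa

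In MCM2 and at both sites of MCM6 the letters read as a pair of overlapping words on opposite strands, a run of 12 bases. A site began within 50 bases of the start in 5 of the 6 promoters, from 35 bases before it in CDT1 to 2 bases after it in MCM2. In MCM6 the sites began 152 and 90 bases before the start. The MCM6 stretch of 160 bases just upstream of the start, chr2:135876444-135876603 on the minus strand, holds both copies and is shown whole because the 2 sites repeat the same 12 letters:
MCM6 promoter: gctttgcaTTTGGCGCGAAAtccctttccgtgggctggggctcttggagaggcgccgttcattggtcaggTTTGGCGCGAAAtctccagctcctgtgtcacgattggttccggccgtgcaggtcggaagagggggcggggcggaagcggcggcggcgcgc

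The pentamer CCAAT, the word of the factor NF-Y, was found in 4 of the 6 promoters (MCM3, MCM6, MCM7 and GINS2). In MCM7 one copy shares a base with the lower E2F-type site. The CHR-type word TTTGAA was found in 0 of the 6. Over all 35116 RefSeq promoters of the same length, 3.31% held an E2F-type word, 15.2% held TTTGAA and 34.6% held CCAAT. Counted by gene, with any promoter of the gene, the shares were 5.38%, 15.3% and 41.4% of 10749 tested genes. MCM7 has several annotated promoters, and only the one shown held an E2F-type word. These matches describe letters only and are not measured binding.

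**Figure D1:**
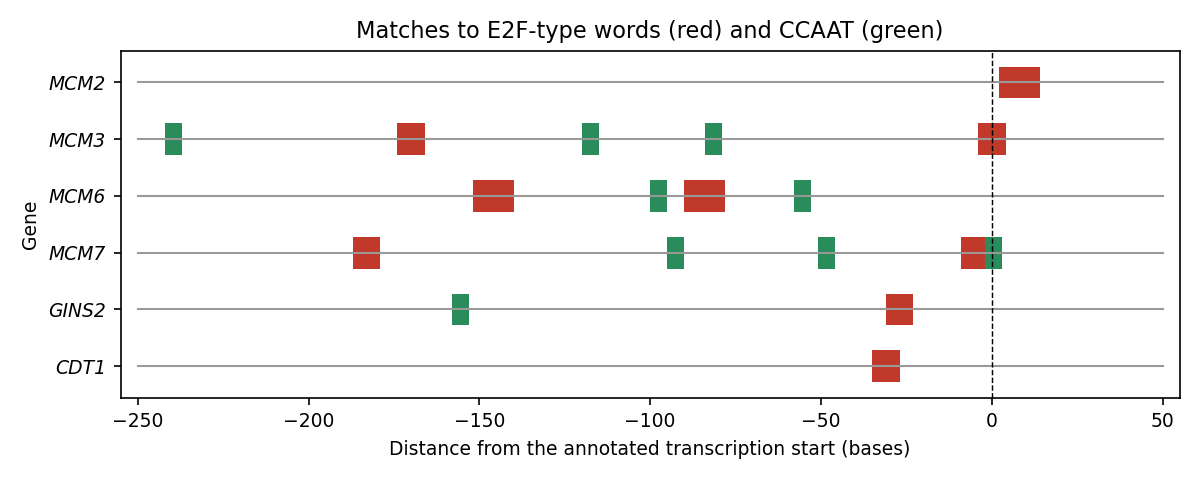
Positions of matched words in the promoters of 6 genes, with distance in bases from the annotated start on the x axis and the start as a dashed line. Red blocks are E2F-type words and green blocks CCAAT, and 5 of the 6 genes have a red block that begins within 50 bases of the start.

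The deposited values are linear intensities, 1 per probe set and array, and all tests were made on their log2. The arrays were alike in scale, with medians over all probe sets of 9.40 to 9.76 and a log2 correlation across genes of 0.990 to 0.992 within groups and 0.985 to 0.987 between groups. A gene was called when its adjusted p (limma, Benjamini-Hochberg over all 14884 genes) was under 0.05. At that threshold 565 genes (3.80%) were called, 308 lower with ATRA (2.07%) and 257 higher. The 3 ATRA values all lay below the 3 DMSO values for 2203 genes (14.8%). The median log2 change over all genes was -0.01. Plasma cell markers were present at high intensity for 6 of the 7 measured, SDC1 and CD38 among them, while CD27 was dim at a mean log2 intensity of 3.88. Their summed intensity was 9022 to 9354 in ATRA arrays and 7136 to 7416 in DMSO arrays. Of the 7, 3 were called higher (CD38, SDC1 and XBP1), beside 257 of all 14884 genes. SLAMF7 at a log2 change of -0.31 and IRF4 at -0.17 were lower without overlap and were not called. Markers of other cell types had mean log2 intensities of 2.21 to 4.91 for the 13 of 20 measured, summed to 166 to 176 in ATRA arrays and 176 to 197 in DMSO arrays, and 0 were called (limma, either direction).

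All 8 genes fell with ATRA, by log2 changes of -0.68 to -1.38, with a median of -0.87. The call was passed by 8 of 8, against 2.07% of all genes called lower. The groups did not overlap for 8 of 8, against 14.8% of all genes. Because the 8 were chosen with earlier results of these data known, both counts are descriptions and no test. The summed intensity of the 8 was 1919 to 1966 in ATRA arrays and 3336 to 3543 in DMSO arrays. Since RNA was taken from whole cultures, fewer cells in the phase that expresses these genes and less RNA per cell cannot be told apart. Leaving out any 1 array kept all 8 calls, the highest adjusted p being 0.0497 for MCM2.

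MCM2, which carries a histone-binding tail on the hexamer, had intensities of 302, 335 and 295 in the ATRA arrays and of 487, 501 and 499 in the DMSO arrays. The DMSO values lie within a narrow band, and the highest ATRA value is far below it. The log2 change was -0.68 ± 0.092 (SE), with a 95% interval of -0.89 to -0.46 and an adjusted p of 0.0102 (limma). The level with ATRA was 62.6% of that with DMSO. MCM3, which sits between MCM5 and MCM7 in the ring, had intensities of 418, 421 and 432 with ATRA and of 680, 695 and 660 with DMSO. Its 3 ATRA arrays were the closest to each other of any of the 8 genes on the log2 scale. Its change was -0.68 ± 0.083, adjusted p 0.00708, at 62.5% of the DMSO level.

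MCM4, MCM6 and MCM7 form a subcomplex that holds helicase activity by itself in the test tube. MCM4 stood at 316, 253 and 297 with ATRA, against 540, 604 and 620 with DMSO. Its middle ATRA array is the lowest and its first DMSO array the lowest of their groups, and the gap between groups is wider than either. The log2 change was -1.03 ± 0.12 (95% interval -1.30 to -0.76, adjusted p 0.00530), and the level with ATRA was 49.0% of that with DMSO. No other subunit had a lower value over all 6 arrays, but without the second ATRA array MCM4 was at -0.94 and MCM5 at -0.98. MCM6 had intensities of 258, 280 and 274 with ATRA and of 437, 490 and 509 with DMSO. The change of MCM6 was -0.82 ± 0.098 (adjusted p 0.00653). MCM7 had intensities of 302, 277 and 266 with ATRA and of 482, 524 and 500 with DMSO. The change of MCM7 was -0.83 ± 0.094 (adjusted p 0.00518), nearly that of MCM6, and both groups are tight.

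MCM5 forms the DNA entry gate of the ring together with MCM2. It stood at 220, 254 and 225 with ATRA, against 424, 442 and 449 with DMSO. The middle ATRA array is the highest of its group here, as it is for MCM2. The log2 change was -0.91 ± 0.096 (95% interval -1.14 to -0.69, adjusted p 0.00374), at 53.1% of the DMSO level.

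GINS2 (also known as PSF2) is 1 of the 4 proteins of the GINS complex, which bridges the hexamer and CDC45. Its intensities were 28.7, 25.8 and 24.9 with ATRA and 59.0, 63.7 and 87.6 with DMSO. The third DMSO array is well above the other two, and even the lowest DMSO value is above every ATRA value. The log2 change was -1.38 ± 0.16 (95% interval -1.76 to -1.01, adjusted p 0.00568), rank 13 of 14884 from the lowest. GINS2 was the dimmest of the 8, and its ATRA values lie near those of the brightest markers of other cell types. The size of its change therefore depends on the low end of the scale: it was -1.01 on the log2(value + 16) scale and -1.21 without the third DMSO array, and it was called in both.

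CDT1 loads the hexamer at origins and is destroyed once S phase begins. Its intensities were 115, 119 and 104 with ATRA and 227, 223 and 215 with DMSO. Both groups are narrow and far apart. The log2 change was -0.98 ± 0.094 (95% interval -1.20 to -0.76), at 50.7% of the DMSO level, and its adjusted p of 0.00259 was the lowest of the 8.

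**Figure D2:**
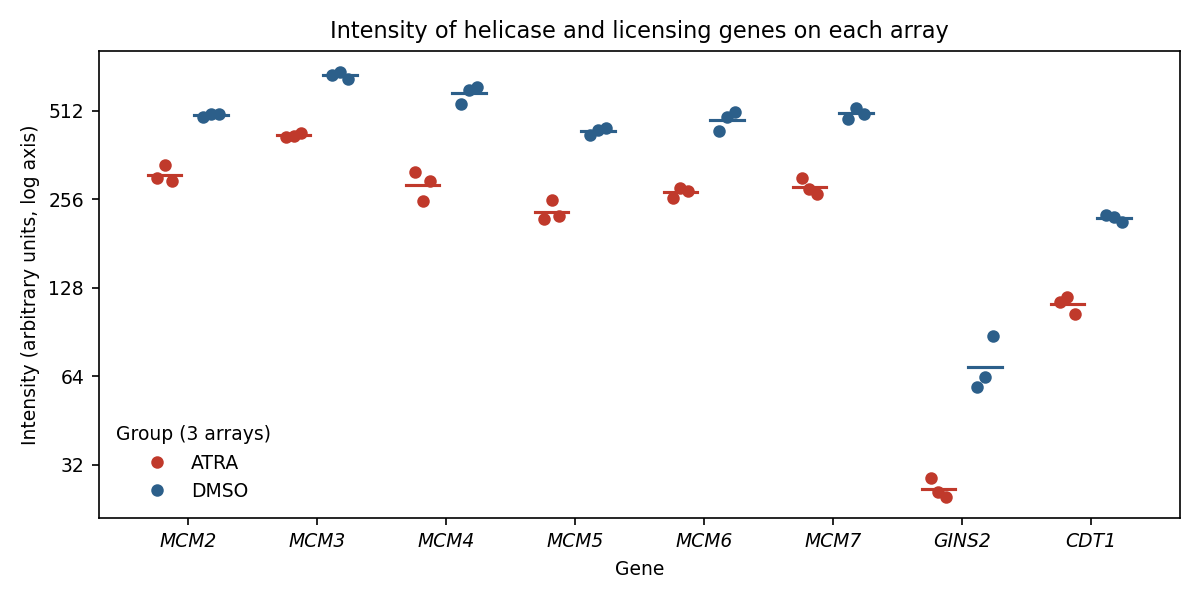
Intensity on each array on a log axis (arbitrary units) for the 8 genes, ATRA in red and DMSO in blue, 3 arrays each, with the bar at the group mean. Every ATRA point lies below every DMSO point of the same gene, and GINS2 with 24.9 to 28.7 in the ATRA arrays is the dimmest.

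**Figure D3:**
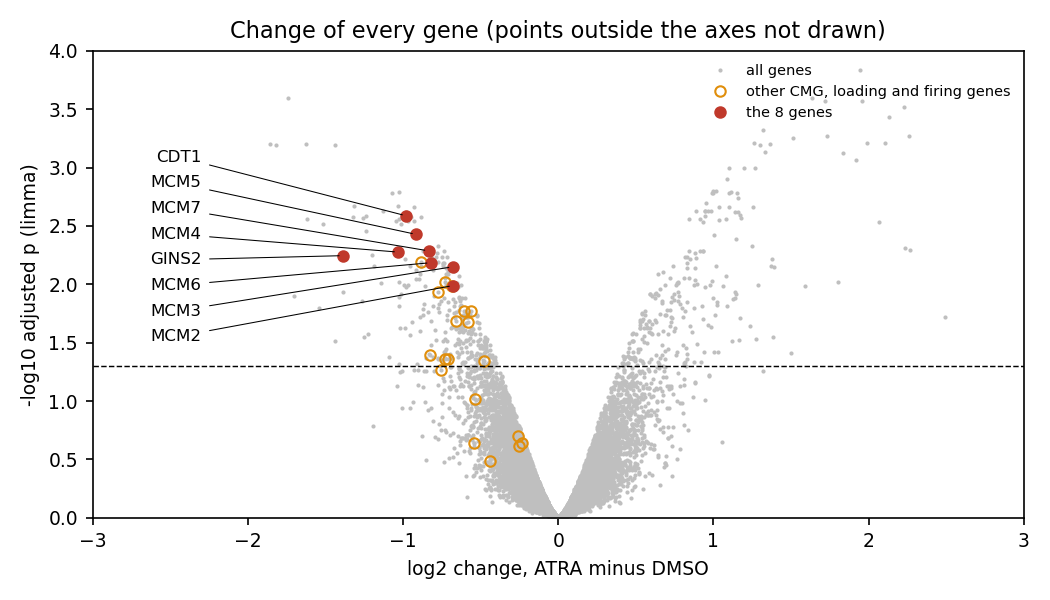
Change of every gene, as log2 ATRA minus DMSO on the x axis against -log10 of limma's adjusted p on the y axis, with the dashed line at 0.05. The 8 genes in red all sit to the left and above the line, between -1.38 for GINS2 and -0.68 for MCM2 and MCM3, and open circles mark other CMG, loading and firing genes.

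The hexamer holds 1 copy of each MCM, so the changes of the subunits were compared with each other. Levels of different probe sets were not compared, only their changes. The mean log2 change of the 6 subunits was -0.83, or 1.77-fold lower with ATRA. The subunits spanned 0.35 on the log2 scale from MCM2 to MCM4, or 1.28-fold, with an SD over subunits of 0.14 beside a median SE of 0.095 for a single subunit. Each subunit is part of the mean it is set against, so the 6 relative changes must lie on both sides of it. MCM6 and MCM7 lay on the mean, at 0.01 and -0.01 relative to it. MCM2 and MCM3 lay above the mean, at 0.15 ± 0.053 and 0.15 ± 0.046 (SE), and MCM4 below it at -0.20 ± 0.10. For these 3 the ATRA and DMSO values did not overlap, at an exact permutation p of 0.1 (0.16 adjusted over the 8 genes), which does not pass the threshold. Without the second ATRA array MCM4 was at -0.11 and MCM5 at -0.15.

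Differences between changes were tested for all 28 pairs of the 8 genes on the log2 ratio within each array, with an exact permutation test over arrays (two-sided). With 3 arrays against 3 the smallest p is 0.1, so no pair could pass the threshold, and the lowest p adjusted over the 28 pairs was 0.2. The ratio did not overlap between groups for 14 of the 28 pairs. These pairs share genes and so are not independent, and the share over other pairs of genes was not counted. Within the hexamer 5 of 15 pairs did not overlap: MCM2 and MCM3 each against MCM4 and against MCM5, and MCM4 against MCM7. The change of MCM2 minus that of MCM5 was 0.24 ± 0.025 (95% interval 0.17 to 0.31, exact p 0.1). The change of MCM3 minus that of MCM4 was 0.35 ± 0.12 (95% interval 0.02 to 0.68, exact p 0.1). For MCM2 minus MCM4, the widest pair of the hexamer, it was 0.35 ± 0.16 (95% interval -0.08 to 0.79, exact p 0.1). For MCM4 minus MCM7 it was -0.20 ± 0.095 (95% interval -0.46 to 0.07, exact p 0.1). These intervals are not adjusted for the number of pairs, and 3 of the 15 within the hexamer excluded 0. The change of MCM2 minus that of MCM3 was 0.003 (95% interval -0.19 to 0.20, exact p 0.9). The change of MCM6 minus that of MCM7 was 0.01 (95% interval -0.26 to 0.29, exact p 0.9).

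GINS2 was dim, and its distance from the hexamer depends on the scale. Its change relative to the hexamer mean was -0.56 ± 0.17 (95% interval -1.03 to -0.09, exact p 0.1, adjusted over the 8 genes 0.16), and its ratio to each of the other 7 genes did not overlap between groups. Relative to the hexamer mean GINS2 stood at -0.44, -0.61 and -0.63 in the ATRA arrays and at -0.16, -0.15 and 0.31 in the DMSO arrays, on the log2 scale with the DMSO mean at 0. Without the third DMSO array the relative change was -0.40. On the log2(value + 16) scale, an alternative chosen after seeing the data, it was -0.21, beside -0.20 for MCM4. MCM4, unlike GINS2, is part of the hexamer mean. CDT1 was -0.15 ± 0.071 relative to the hexamer mean, and its ratio to MCM2 and to MCM3 did not overlap between groups. On the log2(value + 16) scale CDT1 was at -0.096 and its values relative to the hexamer mean overlapped between groups.

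**Figure D4:**
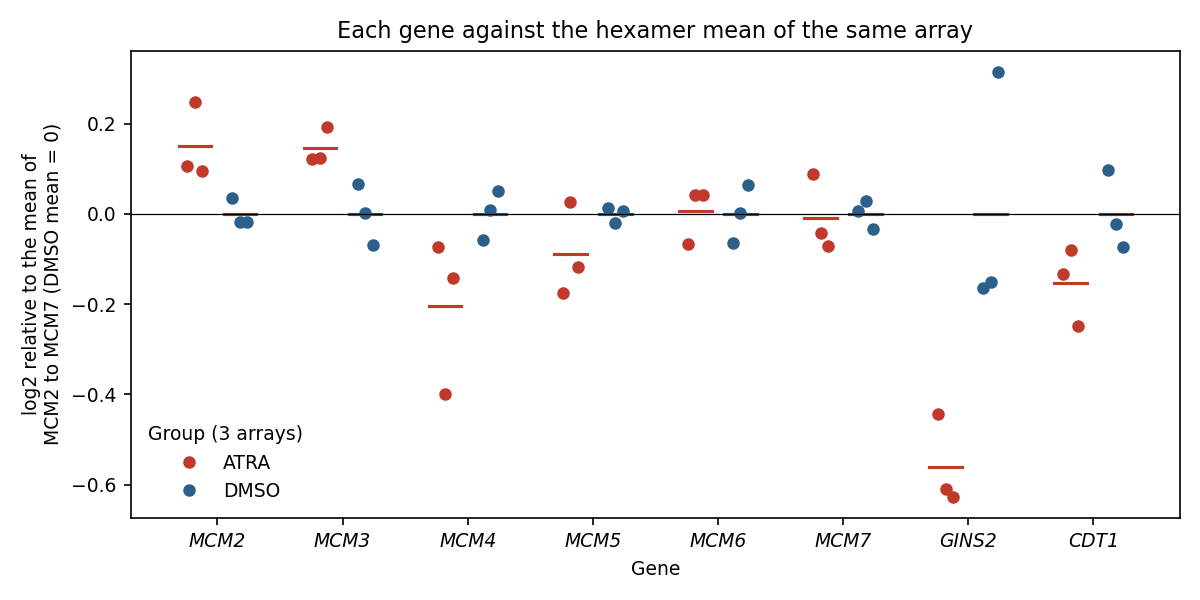
Log2 intensity of each gene minus the mean of MCM2 to MCM7 on the same array, set to 0 at the DMSO mean, for 3 ATRA arrays (red) and 3 DMSO arrays (blue), bars at the means. MCM2 and MCM3 lie above 0 with ATRA, MCM6 and MCM7 at about 0, and GINS2 at -0.44 to -0.63.

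Among the DMSO arrays GINS2 varied most of the 8, with log2 deviations from its group mean of -0.23, -0.12 and 0.34. Among the ATRA arrays MCM4 varied most, with a log2 SD of 0.17 beside 0.11 for GINS2. The median deviation of the 8 from their group means was 0.003, 0.02 and -0.06 in the ATRA arrays and -0.05, 0.03 and 0.02 in the DMSO arrays, on the log2 scale. In the first DMSO array 6 of the 8 lay below their group mean, and in the second 7 lay above. The second ATRA array held MCM4 at -0.18 from its group mean, beside MCM5 at 0.13 and MCM2 at 0.11, so subunits of the same ring deviated in opposite directions on that array.

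The remaining CMG subunits were all measured. CDC45, which joins the hexamer as origins fire, averaged 65.5 ± 2.71 with ATRA and 110 ± 22.6 with DMSO (SD, n = 3 each), a log2 change of -0.73 ± 0.15 (limma adjusted p 0.0433). GINS1 averaged 131 ± 6.59 with ATRA and 196 ± 13.7 with DMSO, a change of -0.58 (adjusted p 0.0211). GINS3 averaged 140 ± 8.26 with ATRA and 195 ± 13.7 with DMSO, a change of -0.48 (adjusted p 0.0453). GINS4 averaged 32.9 ± 3.27 with ATRA and 47.8 ± 7.69 with DMSO and did not pass, at -0.53 (adjusted p 0.0962). Its other probe set is dimmer and had a difference of 0.22.

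Counted together, 10 of the 11 CMG subunits were called lower (2.07% of all genes), with a median change of -0.73. All 11 were lower in mean and had no overlap between groups (14.8% of all genes). Among the GINS proteins GINS2, which belongs to the 8 genes chosen with earlier results known, had the deepest change. Its change minus that of GINS1 was -0.80 ± 0.22, minus that of GINS3 -0.91 ± 0.22, and minus that of GINS4 -0.85 ± 0.26, values that were looked at after the data were seen and carry no test. The calls of CDC45, GINS1 and GINS3 were each lost when any 1 of the 6 arrays was left out, with adjusted p of up to 0.129, 0.0817 and 0.144.

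Promoter words of the E2F type were also found in GINS1 and GINS3, and in CDC6, the loader that works with CDT1. Their sites are given for comparison with those of the 8 genes, on GRCh38.p14 and with the match in capitals:
GINS1, chr20:25407667-25407696, plus strand: agctttgttcgGCGCCAAAgcgcggagcgg
GINS3, chr16:58392455-58392484, plus strand: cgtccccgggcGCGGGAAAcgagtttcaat
CDC6, chr17:40287875-40287904, plus strand: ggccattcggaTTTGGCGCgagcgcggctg

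Of 10 genes that recognise origins or load the hexamer, 3 were measured and 2 were called lower, beside 2.07% of all genes. CDC6 averaged 85.5 ± 8.02 with ATRA and 135 ± 9.33 with DMSO, a log2 change of -0.66 ± 0.11 (limma adjusted p 0.0207). MCMBP, which binds MCM proteins and helps new subunits to assemble, changed by -0.56 (adjusted p 0.0170). KAT7, an acetyltransferase at origins, was at -0.25 and did not pass (adjusted p 0.241). Both calls were lost in 5 of 6 fits without 1 array, with adjusted p of up to 0.0847 for CDC6 and 0.0721 for MCMBP. The origin recognition subunits, ORC1 and ORC6 among them, and the CDT1 inhibitor GMNN were not analysed here.

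Of 5 genes related to the hexamer by family, by partnership or by name, all were measured and lower in mean with ATRA. The threshold was passed by 1, beside 2.07% of all genes called lower. MCM8, a hexamer relative that acts in repair, averaged 552 ± 65.1 with ATRA and 814 ± 37.9 with DMSO, a log2 change of -0.57 (limma adjusted p 0.0417), a call lost without any 1 of the 6 arrays. Its partner MCM9 and their loader HROB were at -0.46 and -0.55 and did not pass (both adjusted p 0.0873). MCM3AP, which shares a name with MCM3 and has a role in mRNA export, was at -0.10, and MCMDC2 was dim at -0.09.

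Factors that turn licensed origins into forks were lower in mean for 12 of 12 measured (17 listed), with a median change of -0.70. Of these, 7 were past the threshold (2.07% of all genes were called lower). The groups did not overlap for 11 (14.8% of all genes). MCM10, which helps the helicase to start moving, averaged 139 ± 11.7 with ATRA and 255 ± 18.4 with DMSO, a log2 change of -0.88 ± 0.11 (limma adjusted p 0.00650). TIPIN, which holds the fork together with TIMELESS, changed by -0.83 (adjusted p 0.0399), WDHD1, which links the helicase to the polymerase, by -0.77 (adjusted p 0.0118), and the kinase CDC7 by -0.73 (adjusted p 0.00954). TICRR, which recruits CDC45, changed by -0.71 (adjusted p 0.0433), and CLSPN, a fork checkpoint adaptor, by -0.69 (adjusted p 0.0104). The seventh was DONSON, a firing factor, at -0.61 (adjusted p 0.0171). CDC7's partners DBF4 and DBF4B were at -0.26 and -0.44 and did not pass, nor did TIMELESS (-0.75, adjusted p 0.0547), RECQL4 (-0.55) and TOPBP1 (-0.23). Without 1 array the count of 7 was 3, 7 and 3 for ATRA arrays 1, 2 and 3, and 2, 4 and 5 for DMSO arrays 1, 2 and 3. MCM10 and CDC7 kept their call in all 6 of those fits.

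**Figure D5:**
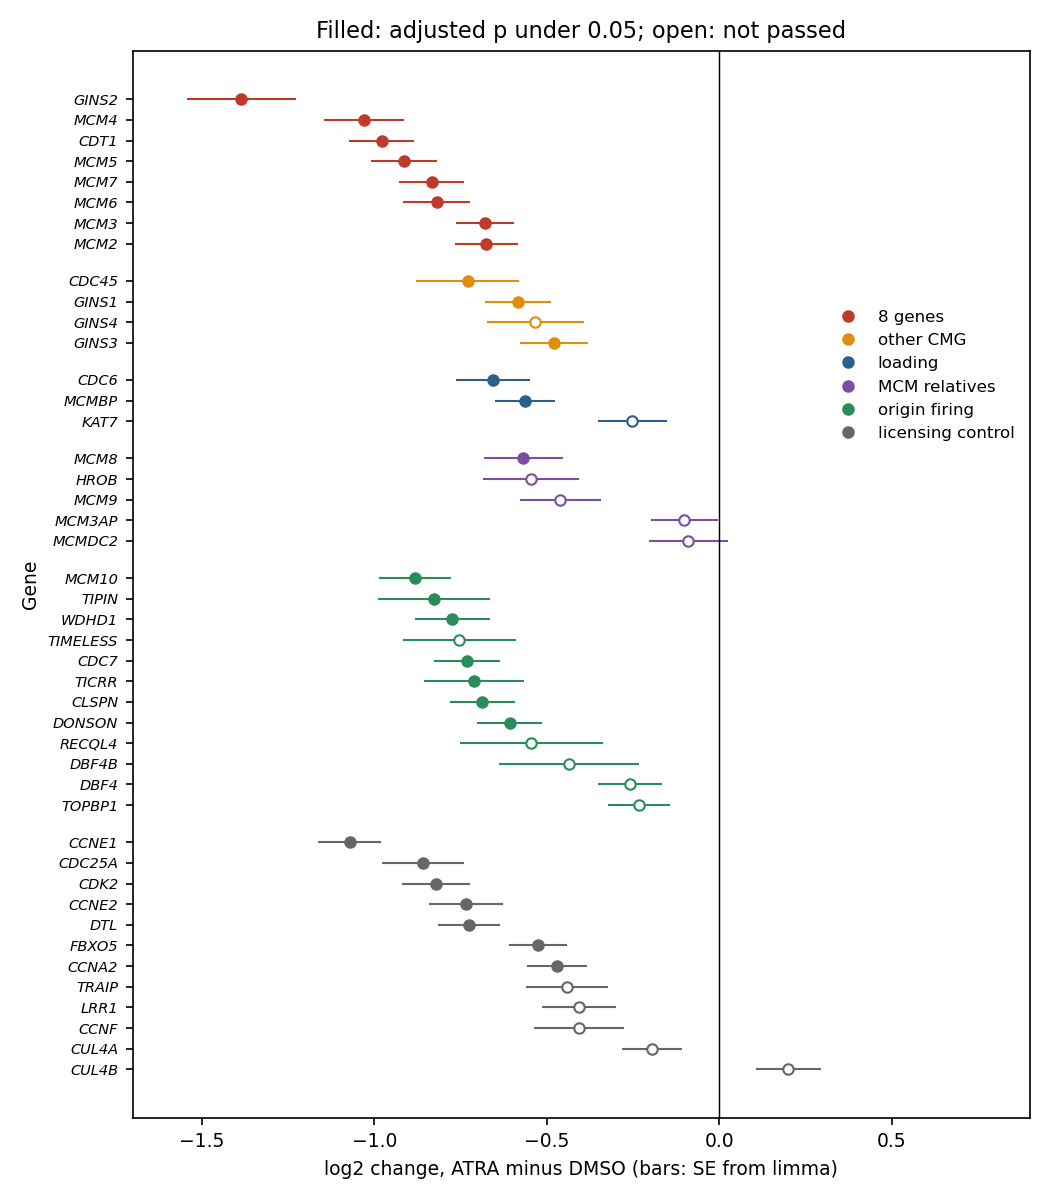
Log2 change, ATRA minus DMSO, with limma's SE as the bar, for the 8 genes (red) and measured genes of the helicase, loading, MCM relatives, origin firing and licensing control. Filled points passed an adjusted p of 0.05 and open points did not, and CUL4B at 0.20 is the only point to the right of 0.

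Among genes that control when licensing is allowed, 7 of the 12 measured (16 listed) were called lower (2.07% of all genes), with a median of -0.50. Without overlap 11 of the 12 were lower (14.8% of all genes). Cyclin E1 (CCNE1), which drives entry into S phase with CDK2, averaged 82.8 ± 4.30 with ATRA and 174 ± 7.22 with DMSO, a log2 change of -1.07 ± 0.091 (limma adjusted p 0.00164). Its phosphatase CDC25A changed by -0.86 (adjusted p 0.0104), CDK2 by -0.82 (adjusted p 0.00654) and cyclin E2 (CCNE2) by -0.73 (adjusted p 0.0131). DTL, the adaptor of the CUL4 ligase that marks CDT1 for destruction, averaged 675 ± 19.1 with ATRA and 1117 ± 63.3 with DMSO, a change of -0.73 (adjusted p 0.00726). DTL and CDT1 thus both fell at the RNA level. The ligase's scaffolds were at -0.20 (CUL4A) and 0.20 (CUL4B) and did not pass. FBXO5, an inhibitor of the anaphase-promoting complex, changed by -0.52 (adjusted p 0.0187) and was dim, and cyclin A2 (CCNA2) by -0.47 (adjusted p 0.0316). FBXO5 and CCNA2 lost the call without any 1 array and CCNE2 in 4 of 6 such fits (adjusted p up to 0.0579), and the count was then 4 or 5. The CDK inhibitors CDKN1A and CDKN1B were not analysed here.

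Of the E2F and RB genes 7 of 19 measured (22 listed) were called lower (2.07% of all genes), with a median of -0.31. In mean 18 were lower, and 12 of these had no overlap (14.8% of all genes). E2F7, a repressor of E2F targets, averaged 90.1 ± 1.80 with ATRA and 172 ± 12.2 with DMSO, a log2 change of -0.93 (limma adjusted p 0.00287). Cyclin D2 (CCND2) changed by -0.74 (adjusted p 0.00653), E2F8 by -0.66 (adjusted p 0.0242), the E2F partner TFDP1 by -0.63 (adjusted p 0.0229), RBL1 by -0.60 (adjusted p 0.0249) and RB1 by -0.58 (adjusted p 0.0190). The seventh, CDK4, changed by -0.47 (adjusted p 0.0318). The activator E2F1 averaged 82.9 ± 11.3 with ATRA and 122 ± 17.1 with DMSO, -0.56, and did not pass (adjusted p 0.0897). Without 1 array the count was 2 to 4, and E2F7 and CCND2 were the members called in all 6 fits.

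Fork genes were measured for 6 of 27, and 5 were called lower (2.07% of all genes), with a median of -0.69. The sliding clamp PCNA averaged 521 ± 14.0 with ATRA and 858 ± 10.6 with DMSO, a log2 change of -0.72 (limma adjusted p 0.00579). The nucleotide enzymes RRM2 and TYMS changed by -0.84 (adjusted p 0.00514) and -0.74 (adjusted p 0.00670), the flap nuclease FEN1 by -0.66 (adjusted p 0.0193) and RRM1 by -0.44 (adjusted p 0.0364). FEN1 lost its call without 1 array in 5 of 6 fits and RRM1 in 6 of 6.

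In the mitosis list 1 of 21 measured (26 listed) passed the threshold, beside 2.07% of all genes called lower. Yet 19 of the 21 were lower in mean with ATRA and 14 of the 21 had no overlap between groups (14.8% of all genes), with a median of -0.26. That gene was MYBL2, a transcription factor that is itself known as an E2F target, at -0.95 (limma adjusted p 0.00264). The proliferation marker MKI67 averaged 1188 ± 26.2 with ATRA and 1543 ± 32.9 with DMSO, -0.38, and did not pass (adjusted p 0.0575). The count of mitosis genes depended on the fit. It was 10 with a variance trend and robust estimation (833 genes called lower in all). It was 6 without the dimmer 50% of genes (707) and 6 on the log2(value + 16) scale (766). It was 4 without the dimmer 25% (394) and 2 with arrays shifted to a common median (350). The main fit called 308 genes lower, and the fits without dim genes tested fewer genes. Over the 9 lists of related genes 85 of 130 were measured, 33 were called lower and 0 higher, with a median of -0.44.

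The promoter words were also counted in these lists. Among lists with promoters at hand, the E2F-type word was in 4 of 10 firing factors, 4 of 10 licensing control genes, 6 of 16 E2F and RB genes and 2 of 5 fork genes, against 2 of 17 mitosis genes. The word TTTGAA was in 12 of 17 mitosis promoters (70.6%), against 0 of the 6 shown above. The same word was in 5 of 10 licensing control genes (50%) and 6 of 16 E2F and RB genes (37.5%). In firing factors it was in 1 of 10 and in fork genes in 1 of 5. Of all tested genes with a promoter 15.3% held it. Across all 10749 tested genes with a promoter 5.38% held an E2F-type word. It was in 41 of the 241 genes called lower with ATRA (17.0%), 11 of the 206 called higher (5.34%) and 526 of the 10302 that did not pass (5.11%). Without the 8 genes the first share was 35 of 235 (14.9%), and without the lists as well it was 21 of 207 (10.1%). These shares are descriptions with no test.

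An intron of MCM7 holds 3 miRNA genes, which are made from the same primary transcript. The mature sequences are shown because 2 of them share a seed, in capitals (bases 2 to 8), and can reach the same targets. They come from RefSeq on GRCh38.p14, minus strand:
hsa-miR-106b-5p, chr7:100094043-100094063: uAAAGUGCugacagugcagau
hsa-miR-93-5p, chr7:100093815-100093837: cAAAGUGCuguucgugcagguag
hsa-miR-25-3p, chr7:100093571-100093592: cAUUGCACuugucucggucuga

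Whereas MCM7 fell by 0.83 on the log2 scale, none of the probe sets for the 3 miRNA genes passed (limma, 0 of 3, either direction). The RNA was labelled with a whole-transcript kit, and whether these probe sets report mature miRNAs was not tested. Their values therefore do not show whether the mature miRNAs changed. MIR106B averaged 21.3 ± 5.30 with ATRA and 19.9 ± 2.81 with DMSO, 0.08 (adjusted p 0.886). MIR93 averaged 11.8 ± 1.69 with ATRA and 12.1 ± 1.21 with DMSO, -0.04 (adjusted p 0.922). MIR25 averaged 34.9 ± 8.68 with ATRA and 35.3 ± 6.35 with DMSO, -0.03 (adjusted p 0.957). The 95% intervals of these log2 changes were -0.40 to 0.55 for MIR106B, -0.35 to 0.28 for MIR93 and -0.54 to 0.47 for MIR25. MIR106B and MIR93 are as dim as markers of other cell types, and MIR25, at a mean log2 intensity of 5.11, lies slightly above the brightest of them.

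The nearest measured gene on each side of the 8 was also followed, 16 genes in all, of which 12 lie within 100 kb of the member and the others farther away. Of the 16, 1 was called lower and 1 higher (3.80% of all genes were called, 2.07% lower). In mean 11 were lower, as were 7879 of all 14884 genes, and the median log2 change was -0.18. HMOX1, heme oxygenase, 5932 bases from MCM5, averaged 1263 ± 16.3 with ATRA and 1967 ± 33.6 with DMSO, -0.64 (limma adjusted p 0.00852). The homing receptor CXCR4, 237905 bases from MCM6, averaged 1316 ± 73.1 with ATRA and 398 ± 44.7 with DMSO, 1.73 (adjusted p 0.000539), opposite to MCM6. APRT, a purine salvage enzyme 80 bases from CDT1, averaged 401 ± 26.9 with ATRA and 398 ± 29.3 with DMSO, 0.01 (adjusted p 0.975). COPS6, a signalosome subunit 540 bases from MCM7, averaged 757 ± 11.1 with ATRA and 807 ± 13.4 with DMSO, -0.09 (adjusted p 0.630). LCT, 2441 bases from MCM6 (-0.22), and GSE1, which overlaps GINS2 (-0.25), did not pass, nor did PLXNA1, 561021 bases from MCM2 (-0.61, adjusted p 0.102), PODXL2, IL17F, PAQR8, SPIDR, UBE2V2, MB, CNPY4, C16orf74 or PIEZO1.

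Genes with a pattern like the hexamer were ranked by the root mean square distance, over the 6 arrays, between their centred log2 values and the mean centred profile of MCM2 to MCM7. Among 7434 other genes with a mean of at least the median of all genes, MIS18A was closest, at 0.043. It averaged 107 ± 4.20 with ATRA and 188 ± 14.1 with DMSO, a log2 change of -0.81. SKA3 followed at 0.044 (change -0.79), then TYMS at 0.050 (-0.74), WDR76 at 0.055 (-0.73) and DUSP1 at 0.056 (-0.78). MIS18A and SKA3 act at centromeres and kinetochores, and DUSP1 is a phosphatase of MAP kinases. The subunits are part of that profile, and their own distances ran from 0.052 for MCM6 and 0.053 for MCM7 to 0.15 for MCM4. That of GINS2, which is not part of the profile, was 0.33.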

How the data were processed

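Total RNA from 6 MM.1S samples was labelled with a whole-transcript kit and hybridised to 1-colour arrays, per the labels. The deposited values are linear intensities from the authors, and RMA and limma stand in the submitters' processing notes without versions or roles. They were turned to log2 with no pseudocount. Of 53617 probe sets 16098 (30.0%) have 1 symbol in the platform annotation and 37519 are unnamed here, and 16094 matched GRCh38.p14 by Entrez ID. The probe set with the highest mean stood for each of 14884 genes, and each of the 8 genes had 1.

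Groups were compared with limma 3.58.1 in R 4.3.3 (lmFit, eBayes, two-sided, no block, no filter), adjusted by Benjamini-Hochberg over all genes. Intervals of limma changes are 95%. Each SD is that of the 3 arrays in a group. The number of arrays limits the precision. The script was tested on simulated data. The 8 genes and the lists were chosen with earlier results of these data known. Named are up to 6 called genes of each list by size of change, or the 2 largest differences where none was called, a few fixed genes, the measured neighbours and the 5 genes closest to the hexamer's profile. Others in the text were chosen after their values were seen. Alternatives were a replicate block, each array left out, filters on dim genes, other normalizations, a variance trend, array weights, probe set means and log2(value + 16).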

Additional observations from a re-analysis of the deposited data

How the results depend on the processing

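All 8 genes kept their direction under the 16 alternatives, and all 8 their call except under the replicate block, which left 6 of 8 (adjusted p 0.0547 for MCM2 and 0.0513 for MCM3). That block left 200 calls (87 lower, 113 higher) and 11 calls in the lists of related genes. Replicate numbers do not pair the samples by the labels. Deviations of same-numbered samples correlated at 0.017, 0.0087 and 0.016, and each sample correlated best with its own number. These correlations are all very weak, and whether the samples were paired was not tested. Leaving out 1 array gave 207 to 317 calls (95 to 165 lower, 112 to 152 higher) and 12 to 20 in the lists. The hexamer median was then -0.87 to -0.80, the spread 0.30 to 0.44, and 14 to 18 pairs had no overlap. Groups of fewer arrays separate more easily, so these pair counts do not show stability. Calls numbered 1143 (707 lower, 436 higher) without the dimmer 50% of genes, 1327 (833 and 494) with trend and robust estimation and 1218 (766 and 452) for log2(value + 16). The hexamer median was -0.77 with cyclic loess. With mean probe sets GINS4 was at -0.16 and CLSPN at -0.39, both not called. Signs turned for 7 genes near 0 when 1 array was left out. MIR106B then ranged over -0.080 to 0.29, MIR93 over -0.15 to 0.026, MIR25 over -0.19 to 0.18, APRT over -0.040 to 0.065, PAQR8 over -0.025 to 0.26, MB over -0.029 to 0.14 and C16orf74 over -0.015 to 0.26. APRT was -0.016 with a common median. The cause was not tested.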
